A study of Ovis aries with 16 samples.

Results

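HCRTR1, which encodes orexin receptor 1, was followed across 16 hypothalami of fetal sheep, each hybridised to a 1-colour Agilent array of ovine probes. Probes were taken as HCRTR1 by the gene name, gene identifier or description in the scanner files: 1 of 15008 distinct non-control probes matched, and it matched only through its NCBI gene identifier (LOC443167). The probe was not aligned to an HCRTR1 transcript here, so every HCRTR1 value rests on that identifier. The gene was chosen by its readout on these arrays, a signal that was low in estradiol against control hypothalami, so its difference between estradiol and control is given below as a description, with no test. For HCRTR1 a test is given only for the contrast that uses neither of these groups.

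The animals were chronically catheterized fetuses at 124 to 128 days of gestation, where term is 147 days. The 4 groups held 4 fetuses each. Control fetuses had a sham occlusion and no other treatment. BCO fetuses had 10 min of brachiocephalic artery occlusion, which lowers blood flow to the fetal brain. Estradiol fetuses received 250 ug of estradiol per day for 5 days and a sham occlusion. Estradiol+BCO fetuses received the same estradiol and the same 10 min occlusion. Blood was sampled in all groups, and hypothalami were collected 1 h after the occlusion, or its sham, began. Every value comes from whole hypothalamus, in which fewer cells of a type and less RNA per cell cannot be told apart.

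The orexins, also called hypocretins, are a pair of neuropeptides cut from one precursor made by neurons of the lateral hypothalamus. They act through a pair of G protein-coupled receptors: HCRTR1 prefers orexin A, and HCRTR2 binds orexin A and orexin B alike. Signalling through both raises intracellular calcium, mainly through Gq and phospholipase C, and the system is known for its part in wakefulness, feeding, sympathetic outflow and the stress axis. The ligand precursor gene, HCRT, was not found by name among the probes and was not analysed here.

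The probe that carried all HCRTR1 values and the only HCRTR2 probe are shown because each receptor rested on a single 60-base sequence. Bases are in lower case, from 5′ to 3′, as the array design gives them, and no part is marked.

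HCRTR1 probe A_70_P026556: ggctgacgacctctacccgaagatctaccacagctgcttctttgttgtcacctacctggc

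HCRTR2 probe A_70_P026626: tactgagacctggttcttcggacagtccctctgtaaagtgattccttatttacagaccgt

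The HCRTR1 probe had 55.0% G and C bases and the HCRTR2 probe 45.0%. The longest run of bases that the HCRTR1 and HCRTR2 probes shared exactly was 7, and the longest that either shared with any other probe of the array was 13. The design file described the HCRTR1 target only as a partial cDNA of sheep and the HCRTR2 target as a partial coding sequence of orexin receptor 2. Both were listed without a genome position, so none is given here.

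The HCRTR1 spot was dim but measurable. It was well above background on 16 of 16 arrays by the scanner's test, with 0 saturated and 0 outlier-flagged spots. Its processed signal, the background-corrected brightness that the scanner software deposits, ran from 107.0 to 298.8 units, over a median local background of 57.0 to 70.0 units. The deposited error of a single spot was 10.06% to 10.64% of the signal, or 0.145 to 0.154 on the log2 scale. Another 50 probes of the array were printed as 5 spots each. Among the 20 of them that came within 0.5 log2 units of the HCRTR1 level, the median SD between spots of the same array was 0.12 and the 90th percentile 0.28, over 181 sets of spots. The SD of HCRTR1 between fetuses of a group, 0.32 when pooled over groups, was larger than that median.

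**Figure D1:**
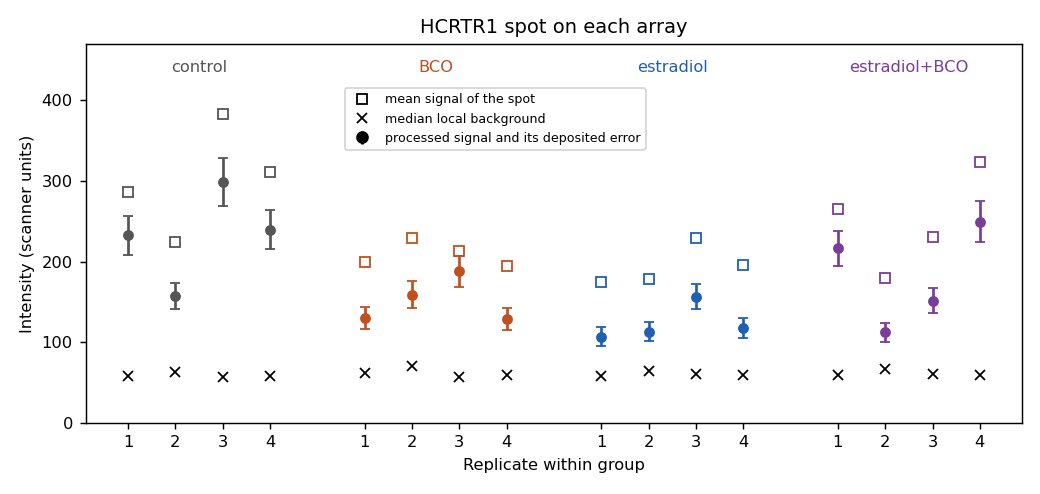
Intensity of the single HCRTR1 spot on each of the 16 arrays, in scanner units from 0. Open squares are the mean brightness of the spot, filled circles the processed signal with its deposited error, and crosses the median local background; the processed signals lie between 107.0 and 298.8 and the local backgrounds between 57.0 and 70.0.

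HCRTR1 spots were brightest on average in control hypothalami, though single spots of other groups reached control levels. In replicates 1 to 4 the processed signals were 232.7, 157.5, 298.8 and 239.4 units. BCO hypothalami gave 130.4, 159.1, 187.9 and 128.9 units. Estradiol hypothalami gave 107.0, 112.9, 156.6 and 117.6 units. Estradiol+BCO hypothalami gave 216.3, 112.5, 151.7 and 249.6 units. All 4 estradiol spots were dimmer than every control spot, though the gap between the brightest estradiol spot and the dimmest control spot was only 0.9 units. The estradiol+BCO hypothalami were split, with replicates 1 and 4 at control levels and replicates 2 and 3 within the range of the estradiol group.

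To compare arrays of different overall brightness, each log2 signal was set against the 75th percentile of its own array, which lay between 2047 and 2939 units. On this scale the HCRTR1 level in control hypothalami was −3.16, −3.70, −3.30 and −3.32, with a mean of −3.37 ± 0.23 (SD, n = 4). In BCO hypothalami it was −4.16, −3.87, −3.64 and −4.19, with a mean of −3.97 ± 0.26 (SD, n = 4). In estradiol hypothalami it was −4.45, −4.34, −3.89 and −4.41, with a mean of −4.27 ± 0.26 (SD, n = 4). The order of the means was therefore control, estradiol+BCO, BCO and estradiol, from high to low. In estradiol+BCO hypothalami it was −3.53, −4.33, −3.97 and −3.24, with a mean of −3.76 ± 0.48 (SD, n = 4), which was the widest spread of the 4 groups. Each group overlapped its neighbour in that order, so the order of the means is only a description.

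**Figure D2:**
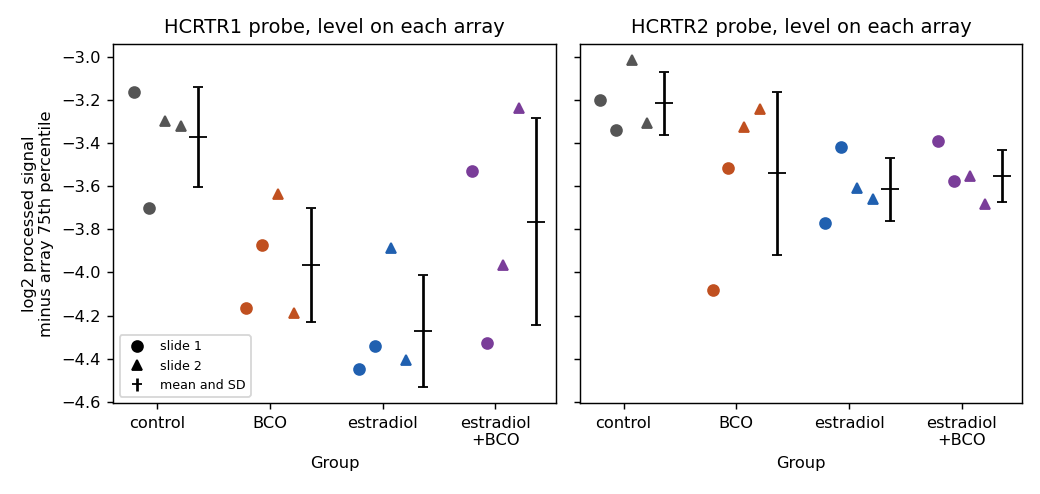
Level of the HCRTR1 probe (left) and the HCRTR2 probe (right) in each fetus, as log2 processed signal relative to the array's 75th percentile; circles are arrays of slide 1, triangles arrays of slide 2, and black bars the mean and SD of 4 fetuses. For HCRTR1 the estradiol arrays (−4.45 to −3.89) lie below the control arrays (−3.70 to −3.16), while the estradiol+BCO arrays span both ranges.

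Among the sham-occluded fetuses, HCRTR1 lay below control after estradiol, with a difference of −0.90 on the log2 scale (SE 0.22), which is 1.87 times lower. The highest estradiol array was 0.19 below the lowest control array. Their spots were nearly equal, at 156.6 and 157.5 units, so most of that gap came from the scaling. The 75th percentile was 2319 units on that estradiol array and 2047 on that control array, the lowest of all arrays. This separation is what the gene was picked for. Estradiol and control arrays did not overlap, with estradiol lower, for 1.55% of the 12937 probes tested, and from this share nothing is read about HCRTR1. The separation also depended on how the spot was corrected: in the uncorrected mean brightness of the spot, 15 of the 16 pairs of an estradiol and a control array had the lower value in the estradiol array and the groups overlapped.

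Every other contrast that uses the control or estradiol arrays shares the same selection and is likewise a description. BCO hypothalami were −0.60 from control (SE 0.22), 1.51 times lower, with 15 of 16 pairs of arrays lower in BCO. Estradiol+BCO hypothalami were −0.39 from control and 0.51 above estradiol, the latter being 1.42 times higher. Without estradiol+BCO replicate 4 the difference from estradiol was 0.33, and without estradiol+BCO replicate 2 it was 0.69. The difference between the effect of occlusion with estradiol and its effect without it was 1.1 (SE 0.31). That value contains the estradiol minus control difference, so it carries no test either.

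Whether estradiol altered HCRTR1 in occluded fetuses was asked in the 8 arrays of the occluded groups. Their means do not enter the estradiol minus control difference that the gene was picked for. The test itself was chosen with earlier results of these data known. Estradiol+BCO exceeded BCO by 0.20 on the log2 scale (SE 0.22), a ratio of 1.15 with a 95% confidence interval from 0.829 to 1.59. The adjusted p was 0.826 by limma with Benjamini-Hochberg adjustment over 12937 probes. These errors come from the fit of all 16 arrays, the selecting arrays included; with the 8 arrays of the occluded groups fitted alone the SE was 0.25 and the adjusted p 0.912. The exact 2-sided permutation test over the 70 arrangements of 4 against 4 arrays gave p = 0.514, where the smallest possible is 0.0286. In this contrast limma called 0 probes of the array at an adjusted p under 0.05 (0%), and at an unadjusted p under 0.05 it called 3.57% higher and 5.95% lower. HCRTR1 was in neither set. The interval leaves room for a rise or a fall in the occluded fetuses. The value rested on single fetuses: it was 0.02 without estradiol+BCO replicate 4 and 0.39 without estradiol+BCO replicate 2.

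Occlusion averaged over both estradiol states differed by −0.04 from sham (SE 0.16). This contrast uses the control and estradiol arrays and is given as a description, with no test. The average combines opposite signs, −0.60 without estradiol and 0.51 with it. It turned positive when either estradiol+BCO replicate 2 (0.05) or estradiol replicate 3 (0.02) was left out.

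Replicates 1 and 2 of each group were on one slide and replicates 3 and 4 on the other, so each contrast could be read within a slide. HCRTR1 was 0.20 higher on slide 2 than on slide 1 (SE 0.15). Estradiol minus control was −0.97 on slide 1 and −0.84 on slide 2. BCO minus control was −0.59 and −0.60. Estradiol+BCO minus estradiol was 0.47 and 0.55. All of these kept their sign and came close to the pooled value on each slide. The contrast tested, estradiol+BCO minus BCO, was 0.09 on slide 1 and 0.31 on slide 2, and the occlusion average was −0.06 and −0.03.

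The handling of background changed the size of some of these contrasts. Estradiol minus control was −0.63 when no background was subtracted, −0.84 when the local background was subtracted and −0.54 after normexp, a model that separates signal from background. After normexp the estradiol arrays ran from −3.79 to −3.03 and overlapped the control arrays at −3.29 to −2.89. The mean of the BCO group, −3.61, was then just below the estradiol mean of −3.59, so the lowest places in the order were exchanged. BCO minus control stayed between −0.68 and −0.51 under these corrections, and estradiol+BCO minus estradiol between 0.22 and 0.43. Scaling mattered less: by quantiles estradiol minus control was −0.90, BCO minus control −0.60, estradiol+BCO minus estradiol 0.55 and estradiol+BCO minus BCO 0.25, and by the array median they were −0.90, −0.61, 0.53 and 0.24.

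**Figure D3:**
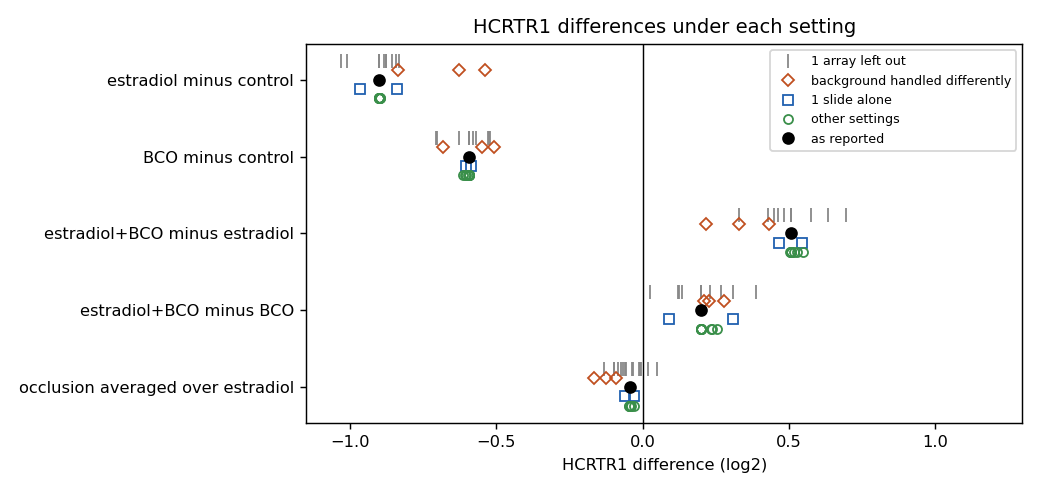
HCRTR1 differences in log2 units (horizontal axis) for 5 contrasts under every setting tried; black circles are the values as reported, grey ticks leave out 1 array, diamonds change the background correction, squares use 1 slide, and open circles are the other settings. Estradiol minus control runs from −1.03 to −0.54, and only the occlusion average crosses 0.

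HCRTR2, the other orexin receptor, was also dim, with a processed signal of 138.0 to 363.6 units, and well above background on 16 of 16 arrays. In control hypothalami its level was −3.20, −3.34, −3.01 and −3.30. In BCO hypothalami it was −4.08, −3.51, −3.33 and −3.24. In estradiol hypothalami it was −3.77, −3.42, −3.61 and −3.66. Its highest single value was therefore in a control fetus and its lowest in a BCO fetus. In estradiol+BCO hypothalami it was −3.39, −3.58, −3.55 and −3.68. Both the estradiol arrays and the estradiol+BCO arrays lay wholly below the control arrays, by gaps of 0.08 and 0.05. The share of probes lower without overlap was 1.55% for estradiol against control and 2.06% for estradiol+BCO against control. Both separations of HCRTR2 depended on the processing. Estradiol arrays reached −2.87 after normexp, above the lowest control array at −2.99. Estradiol+BCO arrays overlapped control arrays slightly with quantile scaling, at up to 7.89 against 7.85, and with median centring, at up to −0.806 against −0.808.

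HCRTR2 passed the adjusted test in none of the contrasts given here. Estradiol minus control was −0.40 (SE 0.16) with an unadjusted p of 0.0240 and an adjusted p of 1.00 by limma, where 1.59% of all probes were higher and 1.69% lower at an unadjusted p under 0.05 and 0 passed after adjustment. BCO minus control was −0.33 with an adjusted p of 0.701, and estradiol+BCO minus control was −0.34 with an adjusted p of 0.844. Estradiol+BCO minus BCO was −0.01, with a 95% confidence interval from −0.35 to 0.33 and an adjusted p of 0.992. On slide 1 that last difference was 0.31 and on slide 2 it was −0.34, and its sign turned to 0.02 with quantile scaling. Estradiol minus control for HCRTR2 was −0.25 after normexp. In estradiol+BCO minus estradiol, where HCRTR1 was 0.51 higher, HCRTR2 differed by 0.06 (SE 0.16, adjusted p of 0.976 by limma), and by −0.05 after normexp.

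Other genes around the receptor were read from lists of the pathway, and few were on the array by name. A gene is counted as measured where 4 or more of the 16 arrays had a probe of that name well above background. Of 42 genes of orexin receptor signalling, 2 were measured. PRKACA, a catalytic subunit of protein kinase A, differed by 0.02 between estradiol+BCO and BCO, with an adjusted p of 0.985 by limma. CREB1, a transcription factor that the kinase activates, differed by −0.08, with an adjusted p of 0.871. Of 34 genes of the arousal transmitters that orexin neurons excite, 5 were measured. SLC6A4, the serotonin transporter, was well above background on 0 arrays of either occluded group, so it was left out of the count there and no fold is given. Of the other 4, 1 was higher and 3 lower, with a median of −0.15 against −0.02 over all probes. HRH2, a histamine receptor, differed by 0.34 with an adjusted p of 0.613. HTR2A, a serotonin receptor, differed by −0.31 (adjusted p of 0.851) and ADRB1, an adrenergic receptor, by −0.23 (adjusted p of 0.813).

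Receptors for the other hypothalamic peptides were the largest measured list. Of 56 genes 22 had a probe, and 19 passed the filter on dim probes. Between estradiol+BCO and BCO 9 were higher and 10 lower, with a median of −0.01 against −0.02 over all probes, and 0 passed at an adjusted or unadjusted p under 0.05 in limma. The 4 with the lowest p were BRS3, a bombesin-like receptor, at 0.71 (SE 0.35, adjusted p of 0.550), OPRK1, the kappa opioid receptor, at 0.29 (SE 0.15, adjusted p of 0.569), AVPR1B, the pituitary type vasopressin receptor, at −0.94 (SE 0.55, adjusted p of 0.609), and SSTR1, a somatostatin receptor, at −0.24 (SE 0.15, adjusted p of 0.637). Between estradiol and control 13 of the 19 receptors were lower, with a median of −0.13 against −0.01 over all probes, and 0 passed at an adjusted or unadjusted p under 0.05. That split turned under normexp, to 7 lower and 12 higher with a median of 0.12. Between BCO and control 14 were lower, with a median of −0.16 against 0.01. Of these, 2 were lower at an unadjusted p under 0.05 and 0 after adjustment, where 3.66% of all probes were higher and 3.51% lower at that unadjusted threshold; BRS3 was one of them, at −1.21 (SE 0.35, adjusted p of 0.493).

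**Figure D4:**
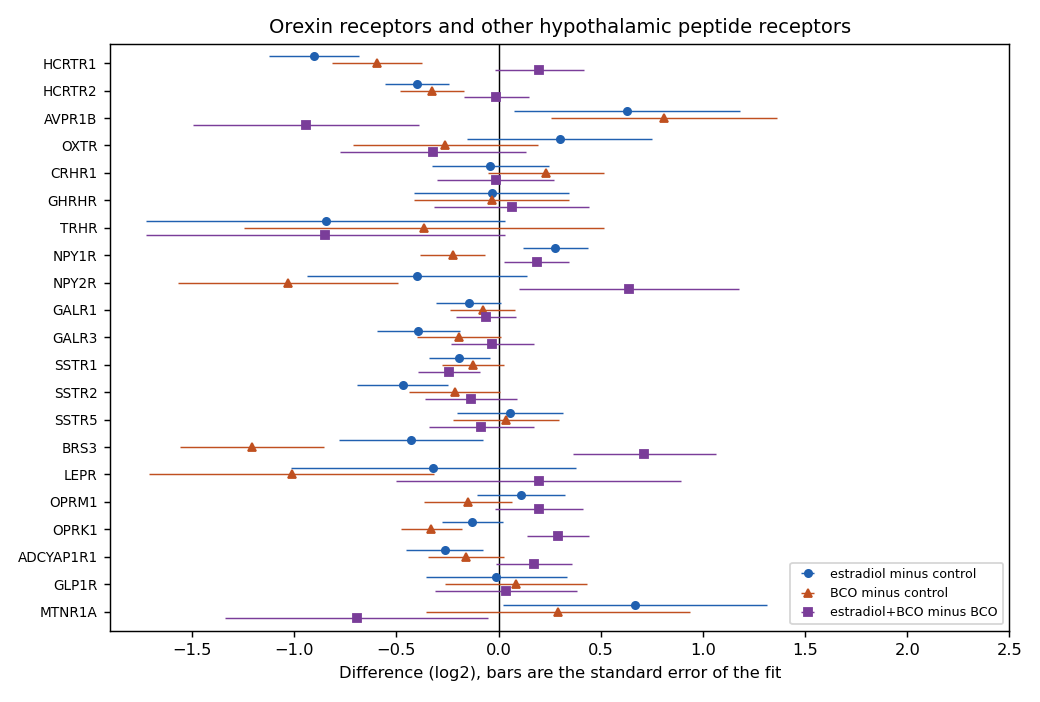
Difference in log2 units (horizontal axis) with the standard error of the fit for both orexin receptors and 19 other peptide receptors, in 3 contrasts marked by colour and shape. HCRTR1 is at −0.90, −0.60 and 0.20 and HCRTR2 at −0.40, −0.33 and −0.01; no gene shown passed an adjusted p under 0.05.

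Genes of the lateral hypothalamus and of feeding circuits, nearly all of them peptides and with the leptin receptor LEPR among them, were measured for 9 of 23. Between estradiol+BCO and BCO 7 were higher and 2 lower, with a median of 0.68 against −0.02 over all probes, and 3 were higher at an unadjusted p under 0.05, namely GAL, SST and GHRH, where 3.57% of all probes were higher and 5.95% lower; 0 passed after adjustment. GAL, galanin, differed by 2.14 (SE 0.56, adjusted p of 0.257 by limma) and SST, somatostatin, by 1.23 (SE 0.41, adjusted p of 0.348). GHRH, growth hormone-releasing hormone, was well above background on 0 of 4 BCO arrays and on 3 of 4 estradiol+BCO arrays. With each BCO array set to at least its lowest signal well above background, GHRH was 6.86-fold higher in estradiol+BCO. This fold is not a strict lower bound, since estradiol+BCO replicate 3, not well above background, was taken at its own signal. The adjusted p by limma, without that setting, was 0.437. The GHRH levels in estradiol+BCO were −2.49 and −1.30 on slide 1 and −7.53 and −6.72 on slide 2. The fold rested on the slide 1 arrays, at 4.30 without replicate 1 and 3.27 without replicate 2. It was 13.8 without replicate 3 and 11.4 without replicate 4. PMCH, melanin-concentrating hormone, whose neurons lie among the orexin neurons, differed by −0.40 (SE 0.28, adjusted p of 0.682). Between BCO and control, where the HCRTR1 difference was −0.60, 8 of the 9 genes were lower. The median of the 9 was −1.54 against 0.01 over all probes. At an unadjusted p under 0.05 in limma 6 were lower, where 3.51% of all probes were lower, and 0 passed after adjustment. GAL then differed by −2.82 (SE 0.56, adjusted p of 0.466), whereas PMCH differed by 0.38 (SE 0.28, adjusted p of 0.849). These values of the BCO arrays stand beside the HCRTR1 values of the same arrays, and their part in the HCRTR1 difference was not tested.

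The tissue was checked against lists of marker genes. Of 9 markers of hypothalamic nuclei 3 were measured; their mean level ran from −5.19 to −4.50 in control, −6.46 to −5.34 in BCO, −5.71 to −4.08 in estradiol and −5.58 to −4.49 in estradiol+BCO hypothalami. NR5A1, which marks the ventromedial nucleus, was well above background on 7 of 16 arrays and on 0 of the 4 BCO arrays. No marker of neurons in general or of oligodendrocytes was measured by name. The 5 pituitary markers measured, of 12, had a mean level from −4.97 to −1.34 in control, −5.97 to −3.40 in BCO, −3.91 to −2.0 in estradiol and −5.15 to −4.04 in estradiol+BCO hypothalami. PRL, prolactin, was at −2.48 ± 2.40 in control and −4.65 ± 0.58 in estradiol hypothalami (SD, n = 4). It was lower there, as HCRTR1 was, but with a wide spread among controls, and PRL was picked after its values were seen. The pituitary list was mixed: 3 of its 5 markers were higher and 2 lower in estradiol than in control. The median difference of the 5 was 0.12 against −0.01 over all probes. Their mean level was lower, at −3.26 in estradiol against −3.07 in control hypothalami. The 6 astrocyte markers measured, of 8, had a mean level from 0.11 to 0.49 in control, 0.21 to 0.58 in BCO, 0.44 to 0.60 in estradiol and 0.06 to 0.42 in estradiol+BCO hypothalami. TTR, which marks the choroid plexus and was the only 1 of its 6 markers measured, was at 1.89 ± 1.37 in control and 0.17 ± 1.37 in estradiol hypothalami. In BCO hypothalami TTR was at 0.68 ± 2.32 and in estradiol+BCO hypothalami at −0.26 ± 1.64. The part of these cell types in the HCRTR1 values was not tested.

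Over the 16 arrays, the HCRTR1 level was set beside that of 851 other named genes by Pearson correlation, as a description over arrays that share groups, slides and scaling. Correlations ran from −0.72 to 0.63 with a median of 0.04, and 0 genes exceeded 0.8. The 5 genes most like HCRTR1 were GJA4, a gap junction protein of arterial endothelium (r = 0.63), BEGAIN, a protein of the postsynaptic density (r = 0.61), PKLR, a pyruvate kinase of liver and red cells (r = 0.58), PPARG, a nuclear receptor (r = 0.56) and ALB, albumin (r = 0.56). PKLR was near background, at 12.9 to 34.6 units, and well above it on 14 of the 16 arrays. In deviations from the group means, which remove the differences between groups but not those between slides, r was 0.63 for GJA4, 0.35 for BEGAIN, 0.61 for PKLR, 0.43 for PPARG and 0.56 for ALB. On slide 1 and slide 2 alone r was 0.81 and 0.45 for GJA4, 0.43 and 0.79 for BEGAIN, 0.58 and 0.67 for PKLR, 0.33 and 0.72 for PPARG, and 0.77 and 0.26 for ALB, so most of these values were unequal between slides. HCRTR2 stood at rank 10 of 851 with r = 0.53, but at rank 231 with r = 0.20 in deviations from the group means.

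The genes that ran most opposite to HCRTR1 were GFAP, the intermediate filament of astrocytes (r = −0.72), ABHD5, a co-activator of fat hydrolysis (r = −0.68, over the arrays left after 1 flagged spot was dropped), and SCD, a fatty acid desaturase (r = −0.67). GFAP levels were 0.95 ± 0.55 in control, 1.44 ± 0.44 in BCO, 1.61 ± 0.27 in estradiol and 1.28 ± 0.27 in estradiol+BCO hypothalami (SD, n = 4), which is the reverse of the HCRTR1 order. The mean of the 6 astrocyte markers did not keep that order, being lowest in estradiol+BCO hypothalami, at 0.18 against 0.28 in control. Within groups the GFAP correlation was −0.53, on slide 1 −0.83 and on slide 2 −0.55. The other correlations were weaker within groups, at −0.31 for ABHD5 and −0.48 for SCD. After normexp r was −0.68 for GFAP, −0.53 for ABHD5 and −0.28 for SCD. Estradiol minus control for GFAP was 0.66 (SE 0.27) with an adjusted p of 1.00 by limma.

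**Figure D5:**
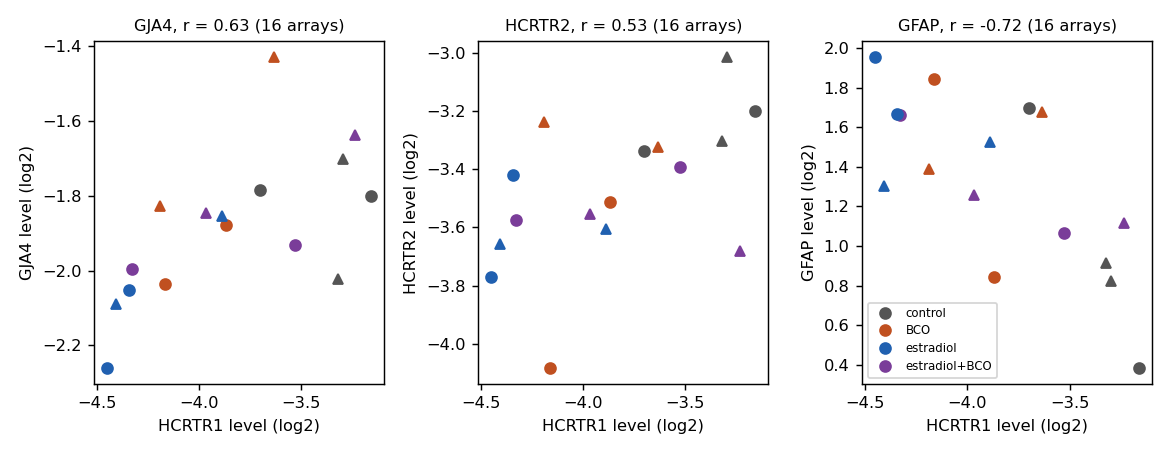
Level of GJA4, HCRTR2 and GFAP (vertical axes) against the HCRTR1 level (horizontal axes), all as log2 processed signal minus the array's 75th percentile; each point is 1 of 16 arrays, coloured by group, with circles for slide 1 and triangles for slide 2. The correlations are 0.63, 0.53 and −0.72, and control arrays sit mostly at the right of each panel.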

How the data were processed

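Total RNA (500 ng, RNA integrity numbers of 7.4 to 8.4) was labelled with Cy3, per the labels' protocols, and the authors deposited 1 scanner file per array, made with Feature Extraction 10.1.1.1 per the file headers. The deposited intensity used was the processed signal; mean signals and local backgrounds served the alternatives, and spot flags were used as deposited. The deposited series table held log2 values of that signal, centred on each array's median over all its features.

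Control and flagged spots were dropped, spots of a probe averaged, and log2 values set against each array's 75th percentile. The 12937 probes well above background on at least 4 of 16 arrays were fitted with limma 3.58.1 (R 4.3.3) in 1 model of 4 groups, with Benjamini-Hochberg adjustment; 2071 probes were left out. Of 15008 probes 1558 had a gene name, from the files or RefSeq gene tables. Permutations used Python 3.11.15. The fit was tested on simulated data.

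HCRTR1, the gene lists and the tests were chosen with earlier results of these data known. The occlusion average for HCRTR1, planned as a test, is given as a description because it uses the selecting arrays. Genes named were HCRTR1, HCRTR2, in each other pathway list the 4 with the lowest p in estradiol+BCO minus BCO, the 5 most and 3 least correlated with HCRTR1, and defining markers; PRL was named after its values were seen. GHRH folds use, for each BCO array, the higher of its lowest signal well above background and the probe's own. Each estradiol+BCO array entered at the probe's own signal. The brightest probe stood for a gene. Nothing says whether fetuses came from separate ewes. The number of arrays limits the precision.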

Additional observations from a re-analysis of the deposited data

Results flagged for a closer look

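Among the 24 genes named by rule, 95 groups of 4 arrays were examined for an array standing far from the other three, which chance alone gives in about 1 group in 20. No HCRTR1 or HCRTR2 array stood apart in its group. Of the other genes, 10 values did, all as log2 level relative to the array's 75th percentile. BCO replicate 2 was high for CREB1, at −2.08 against −2.58 to −2.55 in the other BCO arrays, and for HRH2, at −2.15 against −3.11 to −3.06. BCO replicate 1 was low for OPRK1, at −3.39 against −2.80 to −2.70. BCO replicate 4 was low for SST, at 1.77 against 2.96 to 3.08. Estradiol replicate 1 was low for SLC6A4, at −8.02 against −7.52 to −7.43, and high for AVPR1B, at −3.43 against −6.54 to −6.28. SLC6A4 was well above background on only 5 of the 16 arrays. Estradiol replicate 4 was low for PRKACA, at −3.77 against −3.37 to −3.30. Estradiol+BCO replicate 2 was high for HTR2A, at −3.48 against −5.22 to −4.94. Estradiol+BCO replicate 3 was low for SST, at 2.86 against 4.15 to 4.40. Control replicate 2 was low for PKLR, at −7.31 against −6.41 to −6.33, where the PKLR spot was not well above background. This control array also had the lowest HCRTR1 level of its group, −3.70.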

How the results depend on the processing

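Estradiol+BCO minus BCO for HCRTR1 stayed above 0 and short of the threshold in all 32 alternatives, at 0.20 to 0.28 with every array of both groups, 0.09 and 0.31 within slides, and 0.02 to 0.39 when 1 array was left out, with adjusted p of 0.525 to 0.989. The occlusion average ran from −0.17 to −0.03 with all arrays and from −0.13 to 0.05 when 1 array was left out; it reversed to 0.050 without estradiol+BCO replicate 2 and to 0.02 without estradiol replicate 3. Estradiol minus control moved to −0.54 under normexp, and the cause was not tested; leaving out 1 array gave −1.03 to −0.83. BCO minus control was −0.71 to −0.52 and estradiol+BCO minus estradiol 0.33 to 0.69 when 1 array was left out. The count of pathway list members past the threshold in estradiol+BCO minus BCO was 0 in every alternative, with a lowest adjusted p of 0.162. In BCO minus control that count was 0 as reported, but 1 on slide 2 alone and 1 with the compared groups fitted alone. Of the 5 genes most like HCRTR1, 1 was kept in deviations from group means, 3 with Spearman correlation, 3 under normexp and 5 under median centring. Replicate numbers did not pair the samples. Correlations of deviations between same-numbered arrays were −0.02 to 0.27, with a median of 0.12. Differently numbered arrays of the same slide gave −0.03 to 0.34, with a median of 0.14. Only 3 of 16 arrays were closest to one of their own number. With the replicate number as a block the adjusted p was 0.770 for estradiol+BCO minus BCO, which stayed at 0.20. Local background subtraction and no subtraction were added after the data were seen. The HCRTR1 signal was at most 298.8 units over local backgrounds of 57.0 to 70.0 units.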
